A study of Mus musculus with 23 samples.

Results

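The genes described are 10 that mark or arm cytotoxic T cells and natural killer (NK) cells: Cd3e, Cd8a, Cd8b1, Gzmb, Gzma, Prf1, Nkg7, Ifng, Pdcd1 and Ncr1. They were taken by symbol from a count table of 48397 gene symbols, and all 10 had an entry. The RNA came from tumours of Met1-iRFP cells in FVB mice that were exercised or kept sedentary. Met-1 is a mouse mammary carcinoma line from the MMTV-PyMT model, which here carries iRFP, a near-infrared fluorescent protein. Tumours were sorted into iRFP-negative cells, labelled tumour microenvironment (TME), and iRFP-positive cells, labelled cancer cells, and polyA RNA was sequenced. The 23 libraries form 4 groups: exercised TME (n = 4, numbered 7, 8, 9 and 10), sedentary TME (n = 4, numbered 4, 6, 9 and 10), exercised cancer (n = 7) and sedentary cancer (n = 8). All groups share the strain and the tumour line, and the labels do not describe the exercise further. The labels do not say that each library is a separate mouse, so every p-value below measures the spread between libraries.

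Cytotoxic lymphocytes kill tumour cells by releasing granules at the point of contact. Perforin, encoded by Prf1, opens the target membrane, and granzymes, encoded by Gzma and Gzmb, enter and start cell death. CD8 T cells find targets through the T cell receptor with CD3 and CD8, whereas NK cells use germline-encoded receptors such as NKp46, the product of Ncr1. Activated cells of both kinds secrete interferon gamma (Ifng), and T cells that see antigen for long express the inhibitory receptor PD-1 (Pdcd1).

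Total counts were 22682216 to 37388479 in exercised TME, 16307545 to 35958441 in sedentary TME, 20073700 to 25526059 in exercised cancer and 15924340 to 25563245 in sedentary cancer libraries. Levels are given as CPM (counts scaled to library size by TMM). Leukocyte transcripts set the sorts apart. The leukocyte gene Ptprc, which encodes CD45, had 17.9 to 213 CPM in TME libraries. The pan-leukocyte list summed to 287 to 1586 CPM in exercised TME, 403 to 504 CPM in sedentary TME, 60.0 to 132 CPM in exercised cancer and 41.8 to 77.3 CPM in sedentary cancer libraries. Summed epithelial levels overlapped between the sorts, at 256 to 494 CPM in exercised TME and 318 to 438 CPM in exercised cancer libraries. In sedentary mice these sums were 347 to 563 CPM in TME and 354 to 575 CPM in cancer libraries. Of the 5 epithelial genes tested, edgeR called 1 higher in TME in exercised and 2 in sedentary mice, and 0 lower. Transcripts of epithelial cells were therefore present in the iRFP-negative sort as well.

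The 10 genes were rare transcripts, and TME libraries held most of their counts. Exercised TME libraries held 123, 1884, 1476 and 210 counts for the 10 genes together in libraries 7, 8, 9 and 10. Sedentary TME libraries held 85, 209, 834 and 186 counts in libraries 4, 6, 9 and 10. Counts of at least 10 were found in all 4 exercised TME libraries for Cd3e, Cd8a, Gzmb, Nkg7 and Pdcd1. In sedentary TME all 4 libraries reached 10 counts for Cd3e and Cd8a only. Gzma, the least abundant, had at most 21 counts in any library and none in 6 of 8 sedentary cancer libraries. After the filter on low counts, 8 of the 10 genes were tested within TME (not Gzma and Ncr1), 3 within cancer cells (Cd3e, Cd8b1 and Gzmb), and 9 in the fit to all 23 libraries (not Gzma). In bulk RNA, fewer cells of a type and less RNA per cell cannot be told apart.

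Promoter sequence for 9 of the 10 genes was found in RefSeq's table for GRCm38.p6; Cd8b1 is named only. Gzmb, Prf1 and Nkg7 are shown because they encode granule proteins and had the highest levels per length or the pore-forming role among the 10. Each line gives the 250 bases before the RefSeq start, 5′ to 3′ on the gene's strand: Gzmb on the minus strand at chr14:56262335-56262584, Prf1 on the plus strand at chr10:61297586-61297835 and Nkg7 on the plus strand at chr7:43436888-43437137. Capitals mark matches, on either strand, to the letters TGTGGT (RUNX), GGTGTGA (T-box) and TGANTCA (AP-1), with no overlap among them.
Gzmb: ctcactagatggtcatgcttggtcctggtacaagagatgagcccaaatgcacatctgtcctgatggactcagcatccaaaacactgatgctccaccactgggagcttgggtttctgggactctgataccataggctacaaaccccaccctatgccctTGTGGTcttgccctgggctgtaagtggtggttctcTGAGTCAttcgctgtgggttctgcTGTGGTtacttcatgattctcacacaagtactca
Prf1: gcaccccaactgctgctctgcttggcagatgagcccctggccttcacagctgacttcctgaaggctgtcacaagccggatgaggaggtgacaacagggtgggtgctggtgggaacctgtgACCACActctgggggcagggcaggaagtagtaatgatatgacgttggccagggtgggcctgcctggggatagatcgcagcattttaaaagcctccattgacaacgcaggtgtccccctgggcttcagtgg
Nkg7: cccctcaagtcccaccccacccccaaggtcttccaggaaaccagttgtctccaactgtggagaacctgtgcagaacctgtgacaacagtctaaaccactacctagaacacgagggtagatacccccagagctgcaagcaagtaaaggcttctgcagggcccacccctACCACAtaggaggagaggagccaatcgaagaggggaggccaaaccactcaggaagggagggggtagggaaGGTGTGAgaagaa
RUNX letters stood in Gzmb at -93 and -34, in Prf1 at -130 and in Nkg7 at -83, counted from the start to the first base of the match. Nkg7 also held the T-box letters at -13, and Gzmb the AP-1 letters at -58. Across the 9 genes found, 5 windows held the RUNX letters, against 14% of all 32851 windows of the same length. The T-box letters were in 1 of the 9 and 3.33% of all windows, and the AP-1 letters in 1 of the 9 and 6.75% of all windows. These are letter matches, not measured binding.

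Within TME, exercised library 8 had the highest level of all 10 genes, and exercised library 9 was second for all but Gzma. Exercised libraries 7 and 10 lay within or below the sedentary range for every gene except Pdcd1 in library 10. Cd3e, a signalling chain of the T cell receptor complex, had 0.699, 11.8, 8.54 and 2.62 CPM in exercised libraries 7, 8, 9 and 10. In sedentary libraries 4, 6, 9 and 10 it had 2.71, 1.93, 6.62 and 1.21 CPM. Exercised libraries 8 and 9 and sedentary library 9 were high, and the groups overlapped. Cd8a, the alpha chain of the CD8 coreceptor, had 0.847, 10.9, 7.34 and 2.31 CPM in exercised libraries, against 2.53, 0.763, 2.77 and 1.43 CPM in sedentary ones. Cd8b1, the beta chain found mainly on CD8 alpha-beta T cells, had 0.110, 5.34, 3.81 and 0.842 CPM in exercised libraries, against 0.561, 0.722, 1.75 and 0.492 CPM in sedentary ones. For the CD8 chains again only exercised libraries 8 and 9 lay above every sedentary library.

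The granule genes were also highest in exercised library 8. Gzmb, the serine protease granzyme B, had 0.810, 10.3, 6.88 and 0.975 CPM in exercised TME libraries 7, 8, 9 and 10, against 0, 1.49, 2.21 and 1.03 CPM in sedentary libraries 4, 6, 9 and 10. No Gzmb read was counted in sedentary library 4, the shallowest TME library, which allows a level of up to 0.281 CPM. Prf1 had 0, 2.69, 1.51 and 0.621 CPM in exercised and 1.12, 0.281, 1.44 and 0.358 CPM in sedentary libraries. Exercised library 9 and sedentary library 9 were close in Prf1, and exercised library 7 had no Prf1 count. Nkg7, a granule membrane protein of cytotoxic lymphocytes, had 1.14, 9.58, 4.64 and 0.443 CPM in exercised and 0.749, 2.29, 3.67 and 1.83 CPM in sedentary libraries. Exercised library 10 was thus the lowest of the 8 for Nkg7. Gzma, granzyme A, stayed at 0, 0.664, 0.441 and 0.133 CPM in exercised and 0, 0.241, 0.462 and 0.134 CPM in sedentary libraries. A count of 0 covers counting error only; it allows up to 0.110 CPM in exercised library 7.

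Ifng, the cytokine, had 0.0736, 2.62, 1.53 and 0 CPM in exercised TME libraries 7, 8, 9 and 10, and 0, 0.201, 0.770 and 0.626 CPM in sedentary libraries 4, 6, 9 and 10. Pdcd1 had 0.847, 3.0, 2.31 and 1.2 CPM in exercised and 0.281, 0.482, 1.15 and 1.16 CPM in sedentary libraries. Pdcd1 was the gene whose groups came nearest to separating, with 3 of 4 exercised libraries above the highest sedentary one. Ncr1, the NK receptor gene, had 0, 2.66, 1.30 and 0.177 CPM in exercised and 0, 0, 0.564 and 0.0447 CPM in sedentary libraries. Only 3 of the 8 TME libraries had at least 10 Ncr1 counts: exercised libraries 8 and 9, with 84 and 50, and sedentary library 9, with 22. The groups overlapped for each of the 10 genes.

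**Figure D1:**
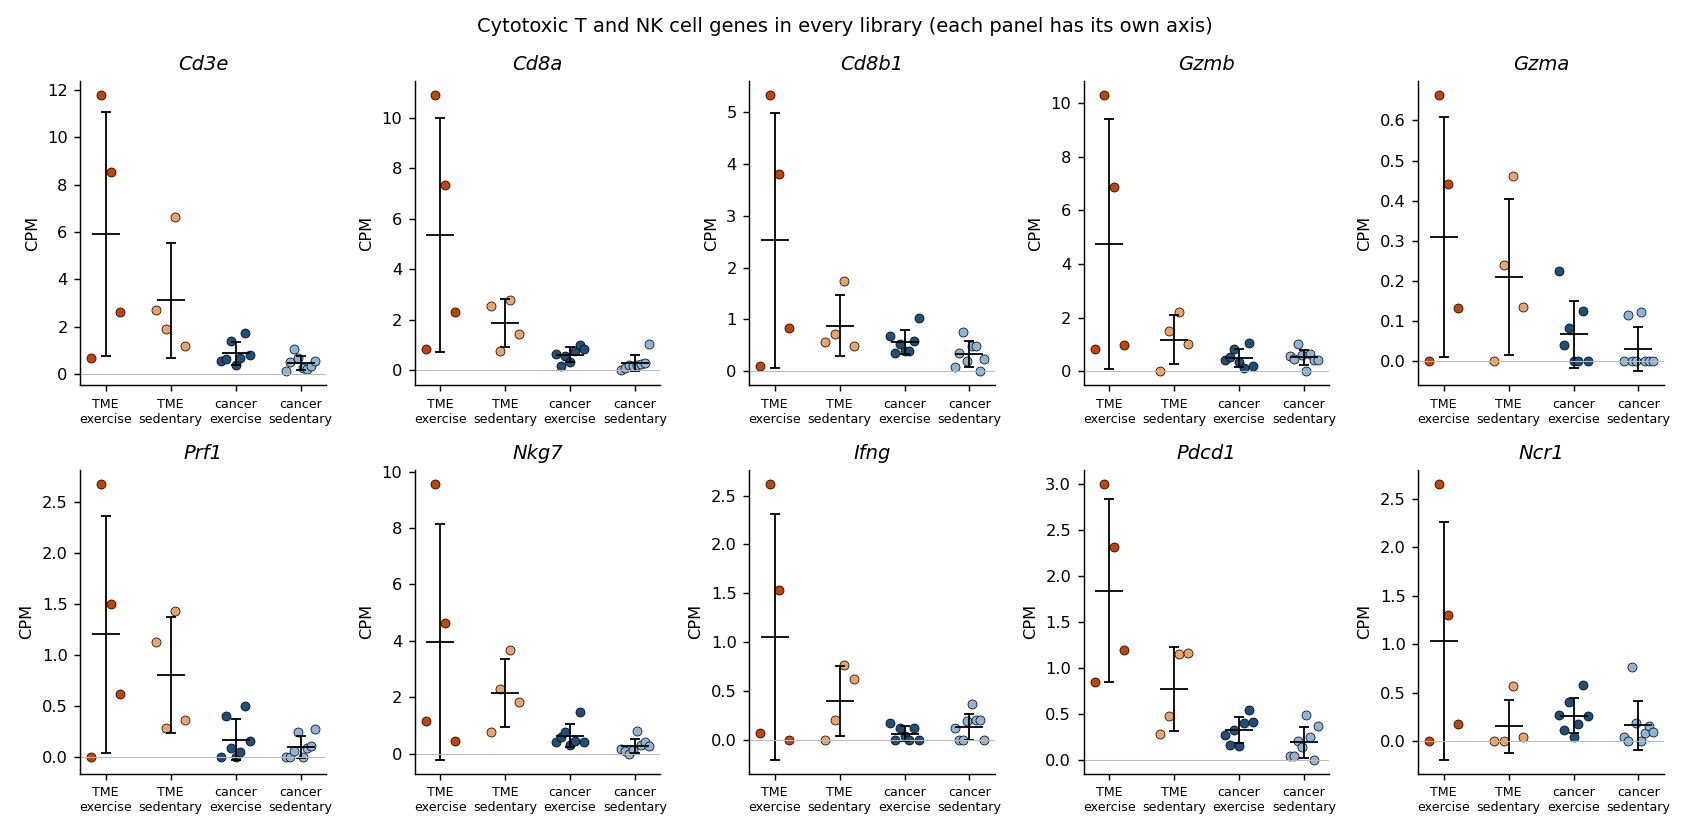
Each panel plots 1 gene, with TMM-scaled CPM on a linear vertical axis of its own and the libraries of exercised TME, sedentary TME, exercised cancer and sedentary cancer cells along the horizontal axis. Points are libraries, in order of their number, and bars are the group mean ± SD; exercised TME libraries 8 and 9 stand above the other TME libraries for most genes, for example at 10.3 and 6.88 CPM for Gzmb.

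Set against gene length, as CPM per kilobase of merged exons, Nkg7 and Gzmb were the highest of the 10. In exercised TME (mean ± SD, n = 4) they had 4.32 ± 4.57 and 3.30 ± 3.25, followed by Cd8b1 at 1.70 ± 1.66, Cd8a at 1.47 ± 1.27 and Cd3e at 1.45 ± 1.26. Gzma was the lowest at 0.308 ± 0.298. In sedentary TME (n = 4) Nkg7 had 2.34 ± 1.32, Gzmb 0.822 ± 0.644 and Cd3e 0.764 ± 0.592, and Ncr1 was the lowest at 0.0989 ± 0.179. Neighbours in this order differed by less than the larger of their SDs, except Nkg7 and Gzmb in sedentary TME. Ratios to Cd3e within a library also varied: Gzmb counts were 1.16, 0.874, 0.805 and 0.373 per Cd3e count in exercised libraries 7, 8, 9 and 10, against 0, 0.771, 0.333 and 0.852 in sedentary libraries 4, 6, 9 and 10. For Ncr1 the ratios were 0, 0.225, 0.152 and 0.0678 in exercised and 0, 0, 0.0853 and 0.0370 in sedentary libraries.

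Exercise was compared with sedentary within TME. None of the 8 genes tested passed the threshold of an adjusted p of 0.05 in edgeR's quasi-likelihood test, where 0% of 16273 genes passed in all. At an unadjusted p under 0.05 in edgeR there were 1373 genes, again with none of the 8. DESeq2 called 41 genes and limma voom 0, none of them among the 8. Each of these tools had 2 of the 8 at an unadjusted p under 0.05. So did edgeR in 1 fit to all 23 libraries, whereas without a filter or with the replicate block it had 1. The fitted log2 fold change (exercised over sedentary, ± SE) was 1.91 ± 1.02 for Gzmb (adjusted p = 0.600), 1.51 ± 0.72 for Cd8a (0.590), 1.46 ± 0.90 for Cd8b1 (0.630) and 1.19 ± 0.56 for Pdcd1 (0.588), by edgeR with Benjamini-Hochberg adjustment. It was 1.28 ± 1.23 for Ifng, 0.89 ± 0.83 for Cd3e, 0.84 ± 0.83 for Nkg7 and 0.59 ± 0.99 for Prf1, with edgeR adjusted p-values of 0.752 to 0.874. The median of the 8 was 1.24, against 0.01 over all genes tested, and 8 of 8 lay above 0. These 8 are not all members, and low genes such as Ifng pass the filter through the libraries in which they are high, so this count and median are descriptions. Fitted without the filter, Ncr1 had 2.50 ± 1.61 and Gzma 0.47 ± 1.09, with edgeR adjusted p-values of 0.602 and 0.906.

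Exercised libraries 8 and 9 carried these estimates. They were picked out with these levels known, for being the highest in these genes, so a fall on leaving them out was built in, and 2 exercised libraries remained. Without them the log2 fold change was below 0 for 7 of the 8 genes, at -3.26 for Ifng, -1.43 for Nkg7, -1.37 for Prf1, -0.93 for Cd3e, -0.92 for Cd8b1, -0.45 for Gzmb and -0.24 for Cd8a, each with an edgeR adjusted p of 0.9999. Pdcd1 was the exception. Of the single libraries, leaving out exercised library 8 gave the lowest estimates, with -0.16 for Prf1 and -0.060 for Nkg7. Leaving out sedentary library 9 gave higher ones for all 8 genes, with 1.60 for Cd3e, 2.05 for Cd8b1, 2.36 for Gzmb and 1.11 for Prf1. Without sedentary libraries 4 and 6, which had the largest mitochondrial shares in TME, the estimates ran from 0.40 for Prf1 to 1.54 for Gzmb. None of the 8 genes was called in edgeR in any of these fits.

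**Figure D2:**
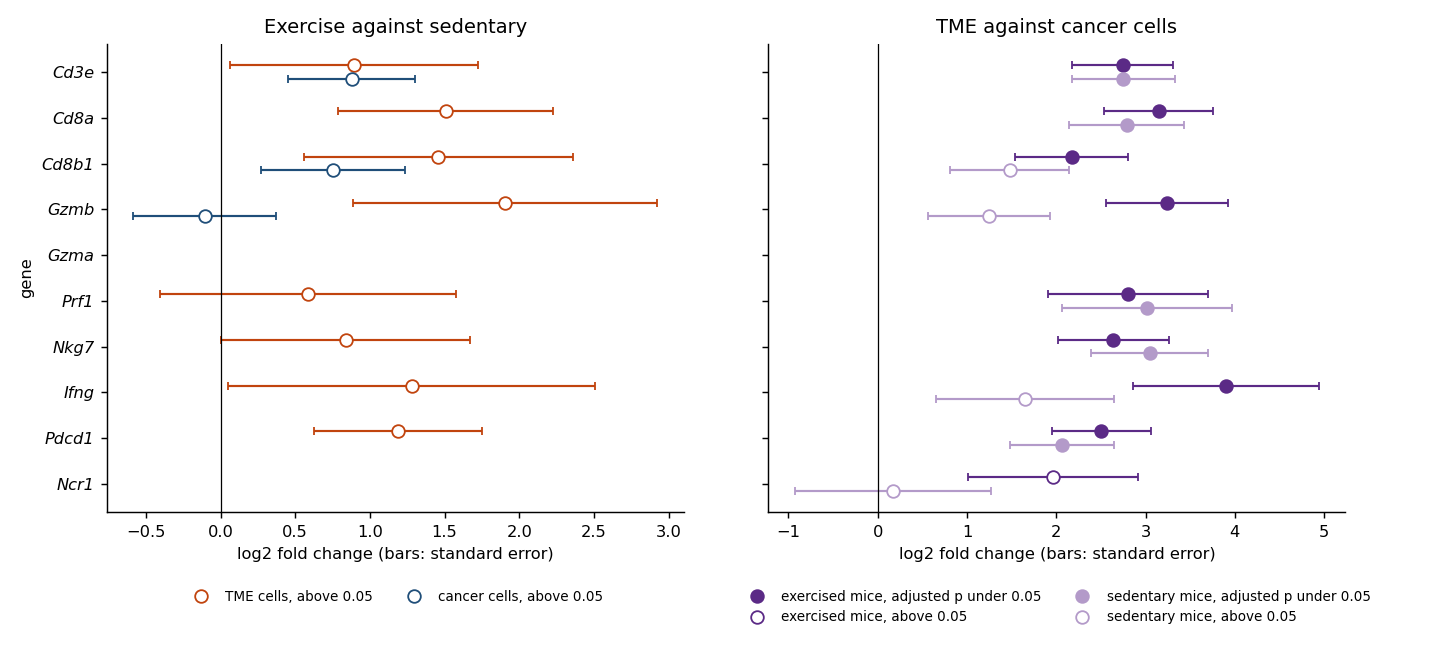
Log2 fold changes with their standard errors for each gene tested, from edgeR, for exercise against sedentary (left) and TME against cancer cells (right); filled points have an adjusted p under 0.05. For exercise within TME the estimates run from 0.59 for Prf1 to 1.91 for Gzmb with wide errors, whereas for exercised TME against exercised cancer cells they run from 1.96 for Ncr1 to 3.90 for Ifng.

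Other leukocyte transcripts moved with the 10 genes in exercised TME. Ptprc had 25.2, 189, 213 and 51.3 CPM in exercised libraries 7, 8, 9 and 10, against 17.9, 39.9, 45.7 and 29.3 CPM in sedentary libraries 4, 6, 9 and 10. The pan-leukocyte list, with all 10 genes detected in every library, summed to 287, 1478, 1586 and 413 CPM in exercised and 485, 443, 504 and 403 CPM in sedentary libraries. Exercised libraries 8 and 9 thus stood apart in the pan-leukocyte list. In the neutrophil list they stood apart less, at 199 and 221 CPM against 153 CPM in exercised library 7. Macrophage genes summed to 518 to 2973 CPM in exercised and 648 to 825 CPM in sedentary TME, and mast cell genes to 109 to 892 and 104 to 233 CPM in the same groups. B and plasma cell genes were near 0, at 1.14 to 4.71 CPM in exercised and 0.804 to 1.82 CPM in sedentary TME. Endothelial genes summed to 39.5 to 104 CPM in exercised and 73.4 to 397 CPM in sedentary TME. The 397 CPM was in sedentary library 4, and libraries 6, 9 and 10, at 92.8, 79.8 and 73.4 CPM, lay within the exercised range. The share of mitochondrial counts was 5.93%, 2.61%, 4.28% and 8.63% in exercised libraries and 42.2%, 14.5%, 3.22% and 6.57% in sedentary ones. The libraries highest in the 10 genes, exercised 8 and 9 and sedentary 9, were also the 3 deepest TME libraries and the 3 with the smallest mitochondrial share. The part of depth and mitochondrial share in the levels of the 10 genes was not tested.

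**Figure D3:**
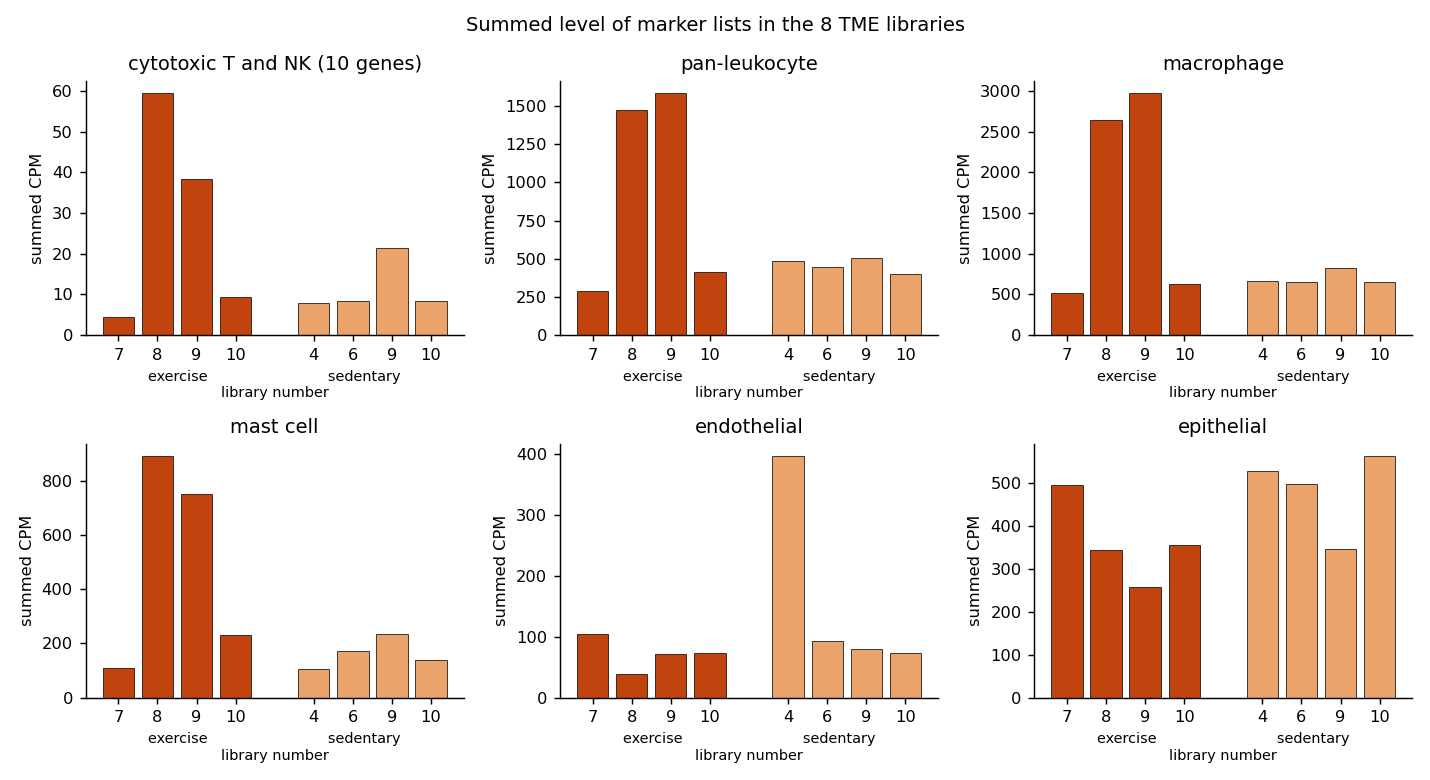
Summed CPM of the 10 genes and of the pan-leukocyte, macrophage, mast cell, endothelial and epithelial lists, with 1 bar per TME library and exercised libraries left of sedentary ones. Exercised libraries 8 and 9 are high in the 10 genes, at 59.5 and 38.3 CPM, and in the pan-leukocyte list, at 1478 and 1586 CPM, whereas sedentary library 9 has 21.4 CPM of the 10 genes and 504 CPM of the pan-leukocyte list.

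Levels were also set against Ptprc. The summed CPM of the 10 genes per 100 CPM of Ptprc was 18.0, 31.5, 17.9 and 18.1 in exercised TME libraries 7, 8, 9 and 10, against 44.5, 21.05, 46.8 and 28.4 in sedentary libraries 4, 6, 9 and 10. Sedentary library 9 had a high level of the 10 genes, with a pan-leukocyte sum of 504 CPM against 403 to 485 CPM in the other sedentary libraries. Cd3e stood at 4.53% ± 1.48 of Ptprc in exercised and 9.65% ± 5.99 in sedentary TME (SD, n = 4 each), and Nkg7 at 3.16% ± 1.98 and 6.05% ± 1.58 in the same groups. For Cd3e, sedentary libraries 4 and 9 had 15.2% and 14.5%. Sedentary libraries 6 and 10, at 4.83% and 4.12%, lay within the exercised range of 2.77% to 6.23%. Gzmb, at 3.45% ± 1.47 in exercised and 3.01% ± 2.09 in sedentary TME, and Pdcd1, at 2.09% ± 0.99 and 2.32% ± 1.23, were closer between the groups. When the pan-leukocyte level entered as a covariate, the exercise estimate within TME was -0.61 for Cd3e, -0.58 for Cd8b1, -1.19 for Prf1, -2.0 for Ifng and -0.69 for Nkg7. It was above 0 for Cd8a at 0.11, Gzmb at 0.14 and Pdcd1 at 0.58, and none of the 8 passed the threshold in edgeR (adjusted p = 0.977 to 0.994).

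**Figure D4:**
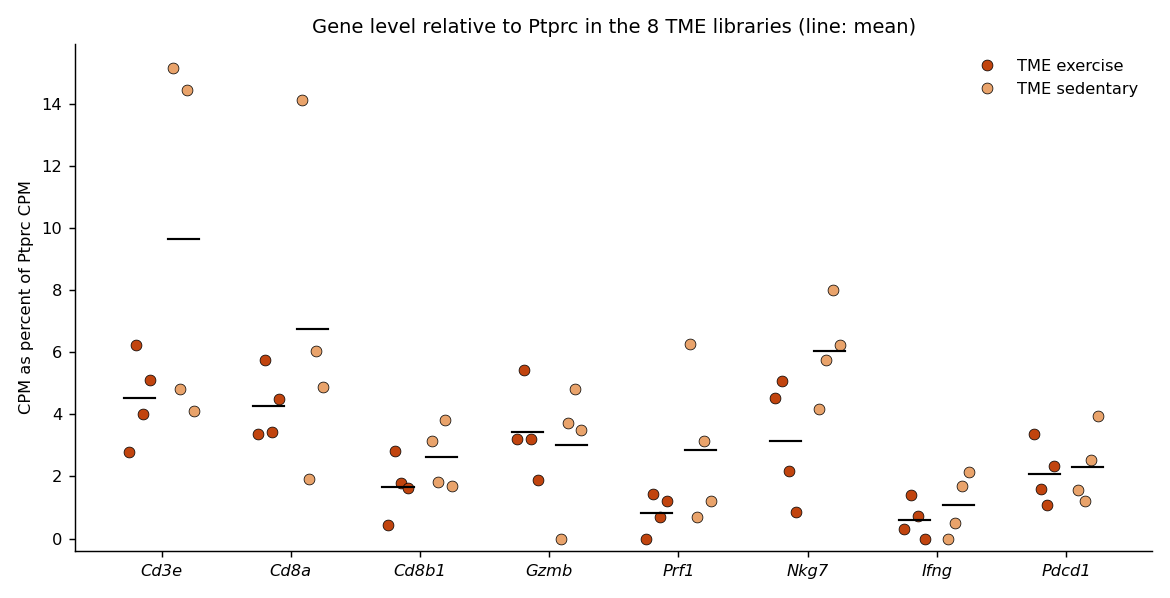
CPM of each of the 8 genes tested within TME as a percentage of the CPM of Ptprc in the same library, exercised left of sedentary, with lines at the group means. Cd3e averages 4.53% in exercised and 9.65% in sedentary TME, and the groups overlap.

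In cancer-cell libraries the 10 genes had low levels, and Gzma and Ifng reached 10 counts in none. Cd3e reached 10 counts in all 7 exercised and 4 of 8 sedentary libraries, Cd8a in 5 and 1, and Cd8b1 in 5 and 2. In the same groups Gzmb reached 10 counts in 3 and 5 libraries and Nkg7 in 4 and 1. For Prf1 these numbers were 2 and 0, for Pdcd1 1 and 0, and for Ncr1 2 and 1. Their summed level was 1.98 to 7.69 CPM in exercised and 1.14 to 4.08 CPM in sedentary cancer libraries, with medians of 3.58 and 2.52 CPM. The lowest, median and highest Cd3e levels were 0.388, 0.664 and 1.74 CPM in exercised libraries, and 0.127, 0.433 and 1.07 CPM in sedentary ones. Cd8a ran from 0.159 through a median of 0.627 to 0.992 CPM in exercised libraries, and from 0 through 0.193 to 1.01 CPM in sedentary ones. Exercised libraries were mostly the higher ones for the receptor genes, but the groups overlapped. Nkg7 ran from 0.310 through 0.443 to 1.49 CPM in exercised and from 0 through 0.223 to 0.790 CPM in sedentary libraries, and every exercised library lay above the sedentary mean. Gzmb did not share this order, with 0.133, 0.403 and 1.03 CPM as lowest, median and highest in exercised and 0, 0.505 and 1.02 CPM in sedentary libraries. Ifng was at 0 in 3 of 7 exercised and 3 of 8 sedentary libraries, and its highest level was 0.179 CPM in exercised and 0.365 CPM in sedentary libraries.

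Exercise had no called effect on the 3 genes tested in cancer cells; 0% of 15096 genes passed in edgeR, with 1901 at an unadjusted p under 0.05. DESeq2 called 161 and limma voom 197 genes, none of them among the 3. At an unadjusted p under 0.05, DESeq2 had 1 and limma voom 2 of the 3. The log2 fold change (exercised over sedentary) was 0.88 ± 0.42 for Cd3e (unadjusted p = 0.0484, edgeR adjusted p = 0.393), 0.75 ± 0.48 for Cd8b1 (adjusted p = 0.541) and -0.11 ± 0.48 for Gzmb (adjusted p = 0.953). Cd3e was above the sedentary mean in 6 of 7 exercised libraries and Cd8b1 in 7 of 7. Without the filter, Nkg7 had 1.24 ± 0.53 (edgeR adjusted p = 0.319) and Cd8a 1.16 ± 0.55 (adjusted p = 0.352). Exercised cancer library 8 was the highest of all 15 cancer libraries for Cd3e, Gzmb, Prf1, Nkg7 and Pdcd1. It also had the highest pan-leukocyte sum of them, at 132 CPM. When the pan-leukocyte level entered as a covariate in cancer cells, the estimates were 0.26 for Cd3e, 0.70 for Cd8b1 and -0.72 for Gzmb, and 0 of the 3 had an unadjusted p under 0.05 in edgeR.

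TME and cancer cells were then compared within each treatment, to show in which sort the transcripts lay. Cd3e, Cd8a, Prf1, Nkg7 and Pdcd1 were higher in TME than in cancer cells in both treatments, and Gzmb, Cd8b1 and Ifng passed the test in exercised mice. Whether the sort difference itself differed between treatments is given further on. Low genes such as Ifng, with at most 4 counts in exercised and 6 in sedentary cancer libraries, passed the filter through TME libraries. The counts of genes called higher in TME, in both treatments and in the lists further on, are therefore descriptions. In exercised mice 8 of 9 genes tested were higher in TME than in cancer cells, where 36.9% of 17503 genes passed in either direction, 17.3% higher and 19.5% lower. The log2 fold change (TME over cancer) was 3.90 ± 1.04 for Ifng (edgeR adjusted p = 0.00322), 3.25 ± 0.68 for Gzmb (0.000510), 3.15 ± 0.61 for Cd8a (0.000197), 2.81 ± 0.90 for Prf1 (0.0136) and 2.74 ± 0.56 for Cd3e (0.000396). It was 2.64 ± 0.62 for Nkg7 (edgeR adjusted p = 0.00144), 2.51 ± 0.56 for Pdcd1 (0.000674) and 2.17 ± 0.63 for Cd8b1 (0.00744). Ncr1, at 1.96 ± 0.95 (edgeR adjusted p = 0.104), did not pass. Mean Gzmb was 4.74 ± 4.66 CPM in exercised TME (SD, n = 4) and 0.493 ± 0.325 CPM in exercised cancer libraries (n = 7). Only for Pdcd1 were all 4 exercised TME libraries above every exercised cancer library. The share of all genes with such a separation was not counted.

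The number of calls moved with the libraries used. Without exercised TME libraries 8 and 9, again left out for being the highest and with 2 libraries remaining, 0 of 9 genes were called in edgeR and 1 had an unadjusted p under 0.05, with 1.43 for Cd8a, 1.70 for Pdcd1 and -0.67 for Ifng. Without library 8 alone 6 genes were called, Cd8b1 (1.58, edgeR adjusted p = 0.0789) and Prf1 (2.13, adjusted p = 0.0998) being lost, and without library 7 all 10 genes were tested and called, Ncr1 among them (2.44, edgeR adjusted p = 0.0385). Deviations of exercised libraries of the same number in both sorts correlated at 0.144, 0.243 and 0.178 for numbers 7, 8 and 10. Libraries of unlike number were not compared, so this does not show pairing, and the main fits used none. With the number as a block, edgeR called 0 of 9 genes and 3390 genes in all, and 5 of the 9 had an unadjusted p under 0.05. The same libraries without the block gave 1 of 9 and 3555.

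In sedentary mice 5 of 9 genes were higher in TME, where 40.8% of genes passed in either direction, 19.8% higher and 21% lower. Nkg7 had 3.05 ± 0.65 (edgeR adjusted p = 0.000529), Prf1 3.02 ± 0.95 (0.0106), Cd8a 2.79 ± 0.65 (0.00107), Cd3e 2.75 ± 0.58 (0.000439) and Pdcd1 2.06 ± 0.59 (0.00513). For Cd3e and Prf1 all 4 sedentary TME libraries lay above every sedentary cancer library, and here too the share of all genes so separated was not counted. Mean Cd3e was 3.12 ± 2.42 CPM in sedentary TME (SD, n = 4) and 0.467 ± 0.307 CPM in sedentary cancer libraries (n = 8). Cd8b1 at 1.48 ± 0.66, Gzmb at 1.25 ± 0.69, Ifng at 1.65 ± 0.99 and Ncr1 at 0.17 ± 1.10 did not pass, with edgeR adjusted p-values of 0.0737 to 0.919. Gzmb averaged 1.18 ± 0.92 CPM in sedentary TME and 0.518 ± 0.287 CPM in sedentary cancer libraries. Without sedentary TME library 9, 4 genes were called and Prf1 was not (2.50, edgeR adjusted p = 0.0624).

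The exercise effect in TME was set against that in cancer cells in 1 fit to all 23 libraries. The difference passed the threshold for 0 of 9 genes, where 0% of 17503 genes passed in edgeR; 1316 genes had an unadjusted p under 0.05, none of them among the 9. DESeq2 called 2 genes and limma voom 40, none among the 9. At an unadjusted p under 0.05, DESeq2 had 1 and limma voom 0 of the 9. Gzmb had a difference of 2.0 ± 0.996 (TME minus cancer, log2; edgeR unadjusted p = 0.0553, adjusted p = 0.678), Ifng 2.25 ± 1.5 and Ncr1 1.80 ± 1.47. The remaining genes lay between -0.41 for Nkg7 and 0.69 for Cd8b1, and Cd3e was at -0.01 ± 0.83. The median of the 9 was 0.44, against 0.01 over all genes tested.

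Other genes of the same pathways, listed together with the members that belong to them, were compared between the sorts in the same fit. Their counts stand beside 17.3% of all genes called higher and 19.5% lower in exercised mice, and 19.8% higher and 21% lower in sedentary mice. Of 16 genes of the T cell receptor complex and its signalling, 14 were higher in TME in exercised and 10 in sedentary mice. Thy1, a surface marker of T cells and of some stromal cells, had 2.48 ± 0.34 in exercised and 3.30 ± 0.34 in sedentary mice, and the adaptor Lat 2.995 ± 0.56 and 2.44 ± 0.56. Of 11 CD8 and granule genes tested, of 20 listed, 8 and 5 were higher in the same groups, among them the granule proteoglycan Srgn at 3.90 ± 0.30 and 3.08 ± 0.29, which other leukocytes express too. Of 12 NK receptor and adaptor genes, 7 were higher and 1 lower in exercised mice, and 5 were higher and 2 lower in sedentary mice. Klrk1, which encodes the activating receptor NKG2D, had 3.94 ± 0.52 and 4.02 ± 0.56. Tyrobp and Fcer1g, adaptors shared with myeloid cells, had 4.83 ± 0.40 and 4.67 ± 0.45 in exercised mice.

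Of 10 transcription factors of the cytotoxic lineage, 4 were higher and 1 lower in TME of exercised mice, and 3 were higher in TME of sedentary mice, where 17.3% and 19.8% of all genes were higher. Runx3, a factor of CD8 T cell fate, had 3.55 ± 0.42 and 3.33 ± 0.42. Tcf7, a factor of naive and stem-like T cells, was lower in TME of exercised mice, at -0.99 ± 0.25. It was thus higher in the cancer sort, where Cd3e was lower. Which cells carried the Tcf7 transcripts was not tested. The inhibitory receptor list also holds Entpd1, which encodes an enzyme, and Tnfrsf9, which encodes a costimulatory receptor. Of this list, 8 of 9 genes were higher in exercised and 6 of 9 in sedentary mice. Entpd1, which other leukocytes express too, had the smallest p of the list, with 4.35 ± 0.39 and 3.40 ± 0.38. Cytokines and chemokines were higher for 6 and 5 of 8 genes. Homing and cytokine receptors were higher for 12 and lower for 1 of 18 genes in exercised mice, and higher for 8 and lower for 2 in sedentary mice. Ligands that draw or feed cytotoxic cells were higher for 6 and 4 of 9, with the CXCR3 ligand Cxcl9 at 3.65 ± 0.31 and 3.05 ± 0.30. All these calls are from edgeR with Benjamini-Hochberg adjustment.

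For exercise within TME, 0 genes of these 8 lists passed the threshold. The list medians (log2, exercised over sedentary) were 0.99 for the T cell receptor list, with 14 of 15 genes above 0, 0.84 for CD8 and granule genes (10 of 11), 0.85 for NK genes (9 of 10) and 0.55 for transcription factors (8 of 9). They were 1.19 for the inhibitory receptor list (8 of 9), 0.88 for cytokines (6 of 8), 0.94 for homing and cytokine receptors (17 of 18) and 0.32 for ligands (8 of 9), against 0.01 over all genes tested. Some lists hold members, and all were chosen with earlier results of these data known. Low genes can pass the filter through the libraries in which they are high, so these counts and medians are descriptions. They were not computed without exercised libraries 8 and 9, which carried the estimates of the members. The smallest unadjusted p-values in edgeR were 0.00273 for Id2 (0.68 ± 0.18), 0.00912 for Tnf (1.34 ± 0.42) and 0.0122 for Ccl4 (1.34 ± 0.42), each with an adjusted p of 0.586. Macrophages transcribe Tnf and Ccl4 as well. Id2 was not called higher in TME than in cancer cells of sedentary mice (-0.31 ± 0.16, edgeR adjusted p = 0.128). Klrk1 had 1.29 ± 0.45 (edgeR adjusted p = 0.586), at 7.55 ± 5.21 CPM in exercised and 3.03 ± 0.23 CPM in sedentary TME (SD, n = 4 each). Within cancer cells no gene of these lists passed either.

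Over the 8 TME libraries, the genes whose log2 CPM ran closest to the mean of the 8 genes tested there were Mcpt2 (Pearson r = 0.988), Trbc1 (0.987), Atp8b5 (0.982), Btla (0.981) and Vps33a (0.978), out of 12300 candidates. Trbc1 encodes a constant region of the T cell receptor beta chain, Mcpt2 a mast cell protease and Btla an inhibitory receptor of lymphocytes. Over the 15 cancer libraries, with the mean of 3 genes, the closest were Zfp937 (0.855), Tlr7 (0.807), Gid8 (0.801), Cd36 (0.800) and Pih1d2 (0.793), out of 11680 candidates. These correlations are descriptions across libraries that share depth and leukocyte content, and the TME values lean on the same few high libraries.

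By the GENCODE M21 annotation of GRCm38, Cd3e lies on the minus strand at chr9:44998740-45009627 and overlaps Gm48720 and, on the other strand, Gm48719. Ifng, on the plus strand at chr10:118441046-118445892, overlaps Gm49751. The remaining 8 genes overlap no annotated gene. The strand setting of the counting is not stated, so Cd3e and Ifng may share reads with these overlapping genes.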

How the data were processed

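Raw read counts of 48397 gene symbols in 23 libraries, deposited by the authors in 1 table, were used in full. The submitters' processing notes name STAR, featureCounts and the mm10 build; versions, annotation and strand setting are not given. Trizol RNA went into KAPA Standard mRNA-Seq libraries, per the labels' protocols. No pair of libraries agreed within sampling noise (smallest chi-square per degree of freedom 7.07), so none was counted as a duplicate.

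The deposited counts went into edgeR 4.0.16 (R 4.3.3): filterByExpr, TMM scaling and the robust quasi-likelihood test, two-sided, with Benjamini-Hochberg adjustment over all genes tested and a threshold of 0.05. Exercise was fitted within TME (8 libraries) and within cancer cells (15 libraries); the sorts and the difference of effects were fitted on all 23 libraries in 4 groups, so the comparisons share libraries. Steps were tested on simulated data. The 10 genes, the gene lists and the tests were chosen with earlier results of these data known. Genes named beyond the 10 are up to 4 per list with the smallest p in a comparison, and the 5 closest by Pearson correlation. The limit that a count of 0 allows was set at 3 counts and covers counting error only.

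Alternatives were RLE size factors, DESeq2 1.42.0, voom with quality weights of limma 3.58.1, a stricter filter (mean CPM 1 or more) and none, the table without mitochondrial genes, the pan-leukocyte level as covariate, 1 fit to all libraries, the replicate number as block, TME sedentary libraries 4 and 6 left out, and each library left out in turn. Leaving out exercised TME libraries 8 and 9 in the fits to all libraries, and the fit to the libraries of the block fit without a block, were added after the data were seen. The main fits used no pairing, and the labels do not say that numbers pair libraries. Between exercised TME and cancer libraries the deviations of all 3 shared numbers correlated above 0.1. Libraries of unlike number were not compared, so these correlations do not show pairing. In sedentary mice no pair did, in cancer cells no pair between treatments did, and in TME only 2 numbers are shared between treatments, of which number 9 (0.235) did and number 10 (0.0105) did not. Promoters are from RefSeq (GRCm38.p6), and gene coordinates from GENCODE M21, matched by symbol for 46467 symbols.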

Additional observations from a re-analysis of the deposited data

Results flagged for a closer look

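Of 48 sets of values tested for a library far from the rest of its group, 6 held one. About 1 in 20 would be marked by chance if the values followed a normal distribution. Many values here come from low counts and the sets share libraries, so that rate is only a rough guide. In sedentary TME, library 9 stood far above the other 3 in the summed level of the 10 genes, at 21.4 CPM, and in Ncr1, at 0.564 CPM. Exercised cancer library 8 stood above the other 6 in the pan-leukocyte sum, at 132 CPM, and in Nkg7, at 1.49 CPM. Sedentary cancer library 10 was far above its group in Cd8a, at 1.01 CPM, and sedentary cancer library 4 in Ncr1, at 0.766 CPM.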

How the results depend on the processing

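No gene of the 10 was called for exercise in TME, exercise in cancer cells or the difference of effects under any alternative run. Genes called in all numbered 41 (TME), 161 (cancer) and 2 (difference of effects) with DESeq2, 197 (cancer) and 40 (difference) with limma voom, 6 (TME) and 28 (cancer) without a filter, and 1 (cancer) with all libraries in 1 fit. Leaving out single libraries gave 0 to 43 in cancer cells, with 43 without sedentary cancer library 4, and 0 to 52 for the difference, with 52 without exercised TME library 7.

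With a mean CPM of at least 1, 4 of 4 genes tested were higher in TME in exercised and 3 of 4 in sedentary mice. With the pan-leukocyte covariate, 1039 genes and 0 of 9 were called in exercised mice (5 of 9 at an unadjusted p under 0.05), and 2477 genes and 1 of 9 (Ncr1, lower) in sedentary mice. All 9 estimates then turned negative, in exercised and sedentary mice: Cd3e -2.21 and -1.53, Cd8a -1.79 and -1.29, Cd8b1 -3.21 and -2.87, Gzmb -2.07 and -3.22, Ifng -5.15 and -5.44, Ncr1 -6.87 and -7.11, Nkg7 -2.58 and -1.36, Pdcd1 -0.32 and -0.42, Prf1 -4.11 and -2.89. The covariate also follows the sort, by construction. It turned the exercise estimate in TME for Cd3e (-0.61), Cd8b1 (-0.58), Ifng (-2.0), Nkg7 (-0.69) and Prf1 (-1.19), and the difference of effects for Cd8a (-0.50) and Cd8b1 (-0.34).

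Without exercised TME libraries 8 and 9, exercise in TME gave -0.93 (Cd3e), -0.24 (Cd8a), -0.92 (Cd8b1), -0.45 (Gzmb), -3.26 (Ifng), -1.43 (Nkg7) and -1.37 (Prf1). The sort comparison in exercised mice then called 0 of 9, with -0.20 for Cd8b1, -0.67 for Ifng and -1.52 for Ncr1. The difference of effects was below 0 for all 9 genes, with 2 at an unadjusted p under 0.05 and 0 called in edgeR. Those that turned from above 0 were Cd8a (-1.38), Cd8b1 (-1.69), Gzmb (-0.37), Ifng (-2.30), Pdcd1 (-0.37) and Ncr1 (-1.65).

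With the replicate block, the sort comparison in exercised mice called 3390 genes and 0 of 9, and the difference of effects 4 genes; the same libraries without the block gave 3555, 1 of 9 and 13. In sedentary mice the block called 4 of 9, without Pdcd1 (1.60, edgeR adjusted p = 0.174), and the same libraries without it 2 of 9, Cd3e and Cd8a. In cancer cells it gave 0.68 for Cd3e and -0.83 for Gzmb. The block turned Ifng (-0.87) and Nkg7 (-0.67) for exercise in TME, Cd8a (-0.52) and Cd8b1 (-0.82) in the difference and Ncr1 (-0.69) in sedentary mice, where the same libraries without it gave -0.49. Between treatments, TME number 9 also deviated together (r = 0.235), although its libraries carry different treatments, and TME number 10 did not (0.0105). Such a correlation does not by itself show that a number marks a pair.

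Cd3e in the difference, at -0.01, turned to 0.045 with DESeq2, 0.037 with RLE, 0.043 with the stricter filter, 0.057 without a filter, 0.047 without mitochondrial genes and 0.50 with voom; voom also turned Prf1 there (0.49) and Gzmb in cancer cells (0.27). Single libraries left out turned Prf1 (-0.16 to 1.11) and Nkg7 (-0.060 to 1.22) for exercise in TME, Gzmb (-0.39 to 0.095) in cancer cells, Ncr1 (-2.89 to 1.16) between sorts in sedentary mice, and in the difference Cd3e (-0.53 to 0.76), Cd8a (-0.39 to 0.76), Prf1 (-0.91 to 0.37) and Nkg7 (-1.27 to 0.034). The cause was not tested. At these depths Gzma and Ncr1, with counts of 0 in several TME libraries, limit any statement on them to the ranges given.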
